A study of Mus musculus with 18 samples.

Results

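*Tpx2* and 9 genes of the cell cycle (*Mki67*, *Top2a*, *Ccnb1*, *Ccna2*, *Cdk1*, *Aurka*, *Kif11*, *Birc5* and *Cdkn1a*) were followed in 3 metabolic tissues of mice on a high-salt diet. They were taken by gene name, and all 10 were among the 21899 genes with expression values. *Tpx2* was chosen because its level was higher in muscle of mice on the high-salt diet, so its muscle values are given as a description with no test. The question for the other 9 was whether genes of mitosis moved with it.

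Libraries of total RNA depleted of rRNA came from liver, epididymal white adipose tissue (eWAT) and quadriceps muscle of wild type C57BL/6 male mice aged 18 weeks. The control group (CON) was kept on chow and tap water, and the other group (HSD) was given chow with high salt and saline to drink for 12 weeks. Each tissue had 3 CON and 3 HSD libraries, 18 in all. By the library names they came from 4 CON and 4 HSD mice, of which 4 mice gave all 3 tissues, so libraries of different tissues are not all independent. A library held 7628267 to 16640171 fragments assigned to genes. Levels are given as FPKM, fragments scaled to gene length and library size, and as whole fragments recovered from the FPKM. The 10 skeletal muscle markers summed to between 60168 and 76894 FPKM in muscle libraries and to at most 44.4 FPKM in eWAT. The 10 hepatocyte markers summed to at least 17102 FPKM in liver, 671 to 2577 FPKM in eWAT and at most 62.0 FPKM in muscle. In eWAT 9 of these 10 were lower in every HSD library, as were 10.4% of all genes. Their sum was nevertheless highest in HS5W and HS2W, so in eWAT it does not follow most of the markers. The 10 adipocyte markers summed to at least 9697 FPKM in eWAT, 286 to 1762 FPKM in liver and at most 781 FPKM in muscle. In liver the skeletal muscle markers summed to 2.41 to 6.58 FPKM in 5 libraries and to 4674 FPKM in CON16L. The eWAT library HS3W stood apart in the same way for 14 epididymal epithelium markers, with 20841 FPKM against 1.10 to 14.5 in the other 5 eWAT libraries. The 15 male germ cell markers, of a tissue where cells divide, also varied in eWAT, with 579 FPKM in HS2W, 253 FPKM in HS3W, 51.2 FPKM in CON71W and 5.52 to 41.6 FPKM in the other 3.

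Cells that divide pass from DNA synthesis in S phase to mitosis, and most of these genes are switched on together late in that course. *Cdk1* with its cyclins *Ccna2* and *Ccnb1* drives entry into mitosis, *Top2a* untangles the chromosomes, and *Mki67* encodes Ki-67, a protein of dividing cells that is widely used to mark them. *Tpx2* binds the spindle microtubules and activates the kinase encoded by *Aurka*, *Kif11* is the motor that pushes the spindle poles apart, and *Birc5* encodes survivin of the chromosomal passenger complex. *Cdkn1a* encodes p21, an inhibitor of cyclin-dependent kinases and a target of p53, which acts against division. Muscle fibres and hepatocytes of adult mice rarely divide, and dividing cells of muscle are mostly satellite, immune and other interstitial cells.

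Many promoters of mitotic genes carry CCAAT boxes and a CHR element with the core TTTGAA, which repressor and activator complexes of the cell cycle use. Promoters are shown here because they are a feature that most of these genes share and that the choice of genes did not use. Of the 10 genes, 8 matched the RefSeq promoters of build GRCm38.p6, and *Tpx2* and *Ccna2* did not. In the 250 bases before the start, CCAAT on either strand was found in 6 of the 8 genes, against 33.8% of 32851 promoters of all genes, and TTTGAA on either strand in 4 of the 8, against 16.0%. The 4 genes with both were *Mki67*, *Cdk1*, *Top2a* and *Kif11*, and 5.5% of all promoters hold both. *Birc5* and both *Cdkn1a* promoters held neither motif in this window. *Kif11* and *Mki67* are shown as examples with both motifs and *Aurka* as an example with CCAAT alone, each on the strand of its gene and 5′ to 3′, with the motif of either strand in capitals. CCAAT on the other strand reads ATTGG, and TTTGAA reads TTCAAA.
*Kif11*, chr19:37376132-37376381, plus strand: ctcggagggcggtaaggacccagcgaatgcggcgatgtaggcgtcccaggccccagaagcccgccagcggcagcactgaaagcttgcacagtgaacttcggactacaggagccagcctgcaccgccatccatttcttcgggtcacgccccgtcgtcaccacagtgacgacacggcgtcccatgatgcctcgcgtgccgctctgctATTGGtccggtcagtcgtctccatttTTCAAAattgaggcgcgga
*Mki67*, chr7:135716380-135716629, minus strand: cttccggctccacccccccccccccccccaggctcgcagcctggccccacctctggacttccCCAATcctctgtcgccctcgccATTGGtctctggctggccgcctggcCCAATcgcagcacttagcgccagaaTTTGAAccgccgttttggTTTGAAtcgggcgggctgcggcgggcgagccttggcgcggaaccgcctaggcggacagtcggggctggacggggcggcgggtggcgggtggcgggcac
*Aurka*, chr2:172370571-172370820, minus strand: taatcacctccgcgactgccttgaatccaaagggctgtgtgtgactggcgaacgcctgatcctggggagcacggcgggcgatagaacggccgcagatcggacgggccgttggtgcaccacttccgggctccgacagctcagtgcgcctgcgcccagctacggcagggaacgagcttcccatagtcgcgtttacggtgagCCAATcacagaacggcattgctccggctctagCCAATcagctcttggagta
In *Kif11* the CCAAT box lay 40 bases and the CHR element 13 bases before the start. In *Aurka* the nearer of 2 CCAAT boxes lay 14 bases before it. These matches describe the letters and do not show that a factor binds there.

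In muscle, *Tpx2* stood alone among these genes: it was higher in HSD, whereas *Aurka*, its partner kinase, lay at the same mean level in both diets and the other 7 mitotic genes stayed near the limit of detection. The *Tpx2* level was 1.95, 2.11 and 1.45 FPKM in CON16M, CON71M and CON72M, and 6.30, 7.43 and 7.07 FPKM in HS2M, HS3M and HS5M. Every HSD library was above every CON library, and the group means were 1.84 ± 0.34 and 6.93 ± 0.58 FPKM (SD, n = 3), a ratio of 3.77. Behind these levels stood 314 fragments in CON and 1253 in HSD, so counting error is small. *Tpx2* lies on chromosome 2 at 152847964 to 152895321 of mm10, plus strand, with 4677 bases of exons in the annotation. A muscle sample pools many cell types, and more cells of a type and more RNA per cell cannot be told apart in any of these values.

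*Aurka*, the kinase that TPX2 activates, was at 4.83, 4.17 and 4.45 FPKM in CON muscle and at 4.07, 3.8 and 5.70 FPKM in HSD muscle. The groups overlapped, with the highest and the lowest library both in HSD. Its log2 fold change was -0.01 with an SE of 0.15 (limma, Benjamini-Hochberg adjusted p = 0.99), so a log2 fold change of 1 lies far outside its error. With another scaling of the libraries the sign turned, to 0.073. *Cdkn1a* was at 4.70 ± 0.31 FPKM in CON and 5.41 ± 0.74 FPKM in HSD (SD, n = 3), with a log2 fold change of 0.18, an SE of 0.13 and an adjusted p of 0.53 by limma. It overlapped too, since HS5M at 4.56 FPKM lay below 2 of the CON libraries. With *Tpx2* left aside, these were the only members with a mean of at least 0.5 FPKM, the minimum for the test, and neither was called, which needs an adjusted p under 0.05 and a log2 fold change of 1 or more in size. Neither had an unadjusted p under 0.05, and limma voom on the fragments called neither. Of all 10834 muscle genes tested, 1761 had an unadjusted p under 0.05. In all 35 were called, 0.323%, of which 11 were higher in HSD (0.102%) and 24 lower (0.222%). With median-ratio scaling 13 were higher and 14 lower, and with the replicate number as a block 54 were called in all.

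**Figure D1:**
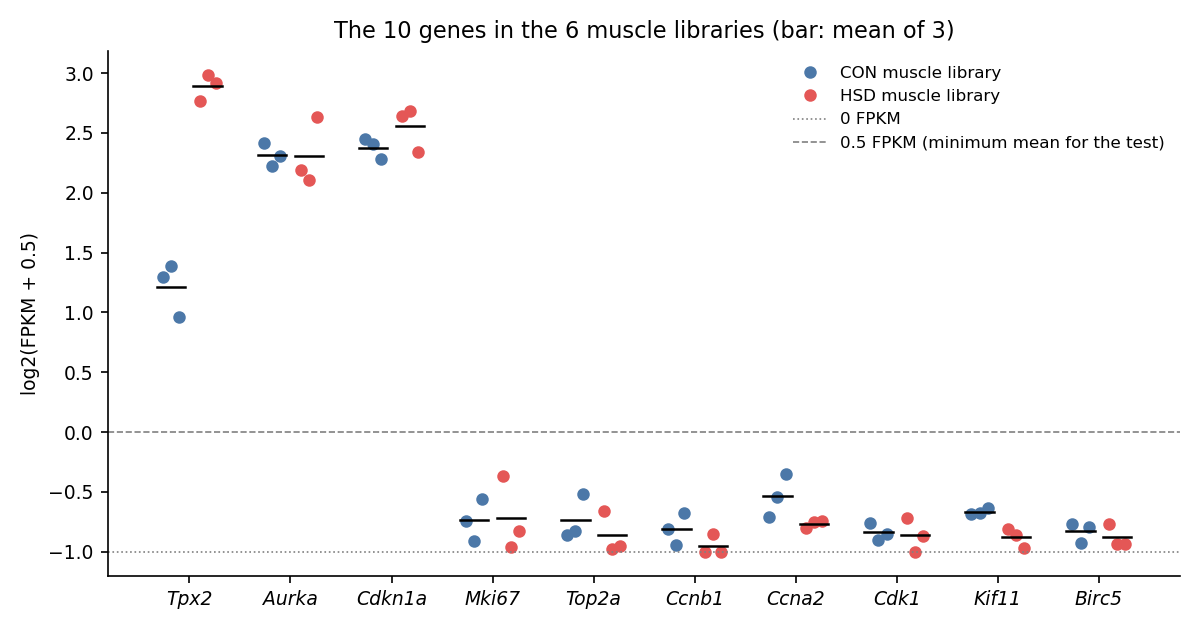
The 10 genes in the 3 CON (blue) and 3 HSD (red) muscle libraries, with log2(FPKM + 0.5) on the vertical axis, the mean of each group as a bar, and dotted and dashed lines at 0 and 0.5 FPKM. Tpx2 is the member whose HSD points all lie above its CON points, and the 7 genes on the right lie between 0 and 0.285 FPKM in every library.

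The other 7 mitotic genes, *Mki67*, *Top2a*, *Ccnb1*, *Ccna2*, *Cdk1*, *Kif11* and *Birc5*, did not exceed 0.285 FPKM in any muscle library. Their summed level was 0.63, 0.49 and 1.06 FPKM in CON16M, CON71M and CON72M and 0.75, 0.25 and 0.26 FPKM in HS2M, HS3M and HS5M. The groups overlapped, with HS2M alone of the HSD libraries inside the CON range, and the whole sum rested on 163 fragments in CON and 112 in HSD. *Tpx2* alone was 1.36 to 4.32 times this sum in CON and 8.41 to 30.04 times in HSD. In liver it was at most 0.28 times and in eWAT at most 0.19 times the sum. *Tpx2* exceeded the sum of the 7 in every muscle library, CON included, and in no liver or eWAT library.

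Without a minimum level, 2 of these genes were lower in every HSD than in every CON muscle library, *Kif11* and *Ccna2*. *Kif11* had 12, 11 and 12 fragments in the CON libraries and 7, 5 and 1 in the HSD libraries. Its means were 0.130 ± 0.012 and 0.044 ± 0.031 FPKM (SD, n = 3), and the adjusted p of the log2 fold change of -0.21 was 0.22 (limma, no minimum level). *Ccna2* had 6, 9 and 13 fragments against 4, 5 and 5, with a log2 fold change of -0.23 and an adjusted p of 0.36 by limma. Over all 16641 genes of this fit, 7 were called (0.0421%) and 13.4% were lower in every HSD library. None of the 7 was higher in every HSD library, where the share over all genes was 5.05%. *Top2a* had 6, 7 and 20 fragments in CON and 16, 1 and 2 in HSD, and *Mki67* had 13, 4 and 20 against 37, 2 and 8, so that both overlapped and HS2M held most of the HSD fragments. *Ccnb1*, *Cdk1* and *Birc5* had 11, 11 and 8 fragments in all CON libraries together and 3, 10 and 6 in all HSD libraries together. Their ratios of HSD to CON over the pooled fragments were 0.26 (exact 95% interval 0.046 to 0.97), 0.85 (0.32 to 2.21) and 0.70 (0.20 to 2.31). These intervals cover counting error only and leave out the spread between mice.

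A wider list of 46 G2/M and mitosis genes showed the same picture. In muscle, 40 of the 46 had a mean under 0.5 FPKM, and of the 6 tested by limma none was called. A single one had an unadjusted p under 0.05, as had 1761 of all 10834 genes tested. The median log2 fold change of the 6 was -0.03, against -0.06 over all genes tested. The highest of them was *Pttg1*, the gene of securin, with 26.3 ± 2.6 FPKM in CON and 26.7 ± 6.3 FPKM in HSD (SD, n = 3). *Ube2c*, which encodes the ubiquitin-conjugating enzyme of the anaphase-promoting complex, had the smallest unadjusted p, with 1.92 ± 0.26 and 1.2 ± 0.73 FPKM and an adjusted p of 0.30. None of the 46 was higher in every HSD library and 5 were lower in every HSD library, *Mad2l1*, *Prc1*, *Nuf2*, *Espl1* and *Ckap2*, which were named after their values were seen. Over all genes fitted without a minimum level, 5.05% were higher and 13.4% lower in every HSD library.

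**Figure D2:**
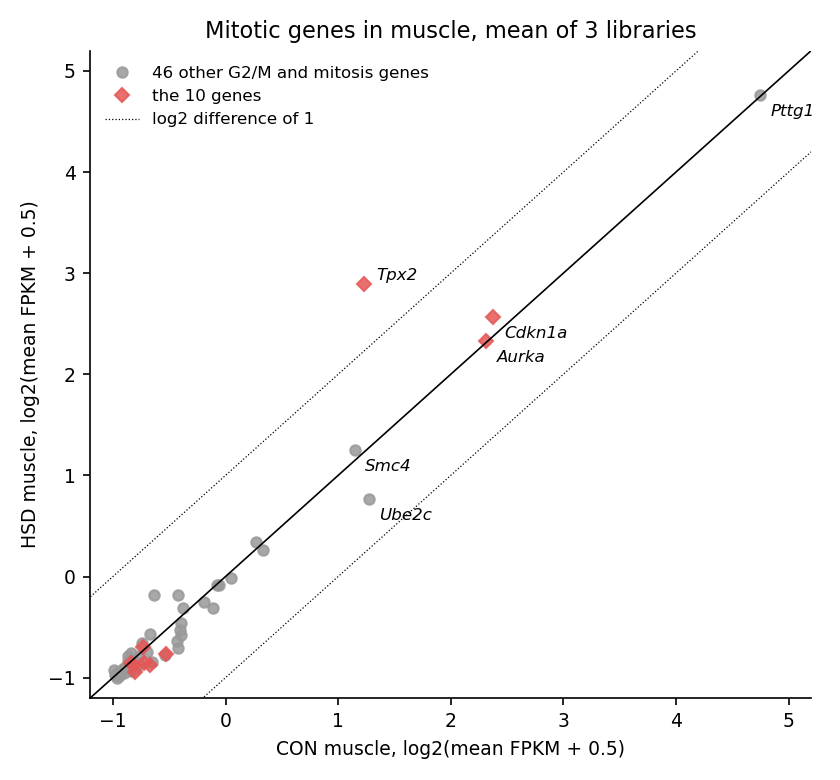
Mean level in CON muscle (horizontal) against HSD muscle (vertical), each as log2(mean FPKM + 0.5) over 3 libraries, for the 10 genes (red diamonds) and 46 other G2/M and mitosis genes (grey), with the line of equal levels and dotted lines at a log2 difference of 1. Tpx2, chosen on this contrast, lies above the upper dotted line, and Pttg1 lies on the line of equal levels near 26 FPKM.

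Of 10 genes whose proteins work with TPX2 on the spindle, many of which also serve cells that do not divide, 9 were tested in muscle. None was called by limma, 5 were higher and 4 lower in HSD, and 2 had an unadjusted p under 0.05, against 1761 of all 10834 genes tested. *Ran*, the GTPase that frees TPX2 from its importins, was at 41.6 ± 3.4 FPKM in CON and 41.8 ± 5.0 FPKM in HSD (SD, n = 3). *Kpnb1*, the gene of importin beta, was at 14.04 ± 0.91 and 13.0 ± 1.7 FPKM. *Ckap5*, which encodes a microtubule polymerase, had the smallest p, with 7.40 ± 0.70 and 5.36 ± 1.06 FPKM and an adjusted p of 0.19.

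Among 30 genes of G1/S and DNA replication, 17 were tested in muscle and none was called by limma. The smallest adjusted p, 0.058, was that of *Ccnd1*, the gene of cyclin D1, at 1.28 ± 0.48 FPKM in CON and 0.36 ± 0.11 FPKM in HSD (SD, n = 3). *Mcm7*, a subunit of the replicative helicase, was at 1.89 ± 0.08 and 2.81 ± 0.58 FPKM with an adjusted p of 0.17. Over the list, 1 gene had an unadjusted p under 0.05 and was higher in HSD, and 3 were lower. Such a p was found for 1761 of all 10834 genes tested. Without a minimum level, 8 of the 30 were lower in every HSD library and 1, *Mcm7*, was higher in every HSD library. Over all genes fitted that way, 13.4% were lower and 5.05% higher in every HSD library. Of 9 further inhibitors of cyclin-dependent kinases and pocket proteins, 8 were tested and none was called or had an unadjusted p under 0.05. *Cdkn1b*, the gene of p27, was at 12.0 ± 0.4 and 12.3 ± 1.2 FPKM.

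*Cdkn1a* is a target of p53, and of 20 other p53 targets 17 were tested in muscle. None reached a log2 fold change of 1 with an adjusted p under 0.05, 13 were higher in HSD and 3 of these had an unadjusted p under 0.05. Over all 10834 genes tested in muscle, 1761 had an unadjusted p under 0.05 by limma. *Phlda3*, a p53-induced repressor of AKT signalling, was at 113 ± 13 FPKM in CON and 177 ± 2 FPKM in HSD (SD, n = 3), a log2 fold change of 0.65 with an SE of 0.12 and a limma adjusted p of 0.0496. *Eda2r*, a receptor of the TNF receptor family, was at 4.30 ± 0.80 and 8.61 ± 2.83 FPKM with an adjusted p of 0.097. *Mdm2*, the ubiquitin ligase of p53, was at 13.9 ± 0.7 and 16.8 ± 1.0 FPKM with an adjusted p of 0.28.

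Markers of cells that can divide in muscle were measured beside these genes. Of 10 macrophage markers, 9 were tested, 8 were lower in HSD and *C1qa*, a chain of complement C1q, fell, from 10.9 ± 2.2 to 4.87 ± 0.17 FPKM (SD, n = 3; limma log2 fold change -1.07, adjusted p = 0.021). Their summed level was 58.3 to 93.1 FPKM in CON and 43.2 to 47.6 FPKM in HSD, and none of the markers was at 0 in all libraries. The 10 T and B cell markers summed to 1.37 to 1.66 FPKM in CON and 0.39 to 1.04 FPKM in HSD, and the 1 tested, *Cd3e* of the T cell receptor complex, was at 1.02 ± 0.13 and 0.31 ± 0.09 FPKM (limma log2 fold change -0.92, adjusted p = 0.037), short of the size needed for a call. The 10 satellite cell and myoblast markers summed to 97.5 to 113 FPKM in CON and 95.7 to 110 FPKM in HSD, with 7 tested and none called by limma. Of those tested, 3 were higher and 4 lower in HSD. Over the whole list, *Myod1* was higher in every HSD library (13.05 ± 0.40 and 17.1 ± 1.9 FPKM, SD, n = 3), and *Pax7* (0.56 ± 0.09 and 0.39 ± 0.12 FPKM) and *Heyl* (2.02 ± 0.12 and 1.33 ± 0.26 FPKM) were lower in every HSD library. Over all genes fitted without a minimum level, 5.05% were higher and 13.4% lower in every HSD library. *Pax7* is the defining gene of satellite cells and *Myod1* a regulator of myoblasts, and these genes are named after their values were seen. Of the 10 skeletal muscle markers, 7 were higher and 3 lower in HSD, and they summed to 60168 to 67481 FPKM in CON and 66348 to 76894 FPKM in HSD. The 2 called were lower, the myosin heavy chain genes *Myh2* (limma log2 fold change -1.06, adjusted p = 0.039) and *Myh1* (-1.01, adjusted p = 0.045). Over all muscle genes tested, 0.222% were called lower. The part of these cell types in the values of *Tpx2* and of the low mitotic genes was not tested.

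The neighbours of *Tpx2* on chromosome 2 were measured to see whether a wider stretch of the chromosome differed in muscle. *Mylk2*, the gene of skeletal muscle myosin light chain kinase, starts 16.0 kb after the end of *Tpx2* on the same strand. It was at 397, 372 and 367 FPKM in the CON libraries and 663, 513 and 604 FPKM in the HSD libraries, so that every HSD library was above every CON library. Its log2 fold change was 0.64 with an SE of 0.13 and an adjusted p of 0.066 by limma, below a log2 difference of 1. *Bcl2l1*, an inhibitor of apoptosis on the other side and on the minus strand, was at 3.21 FPKM in CON and 4.02 FPKM in HSD, again with every HSD library above every CON library (limma adjusted p = 0.30). Over all 10834 genes tested, 6.72% were higher in every HSD library. *Id1*, *Cox4i2*, *Foxs1* and *Dusp15* overlapped between the diets. One annotated gene, a microRNA, lies inside *Tpx2*. Whether the authors counted fragments by strand is not stated in the sources used here.

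**Figure D3:**
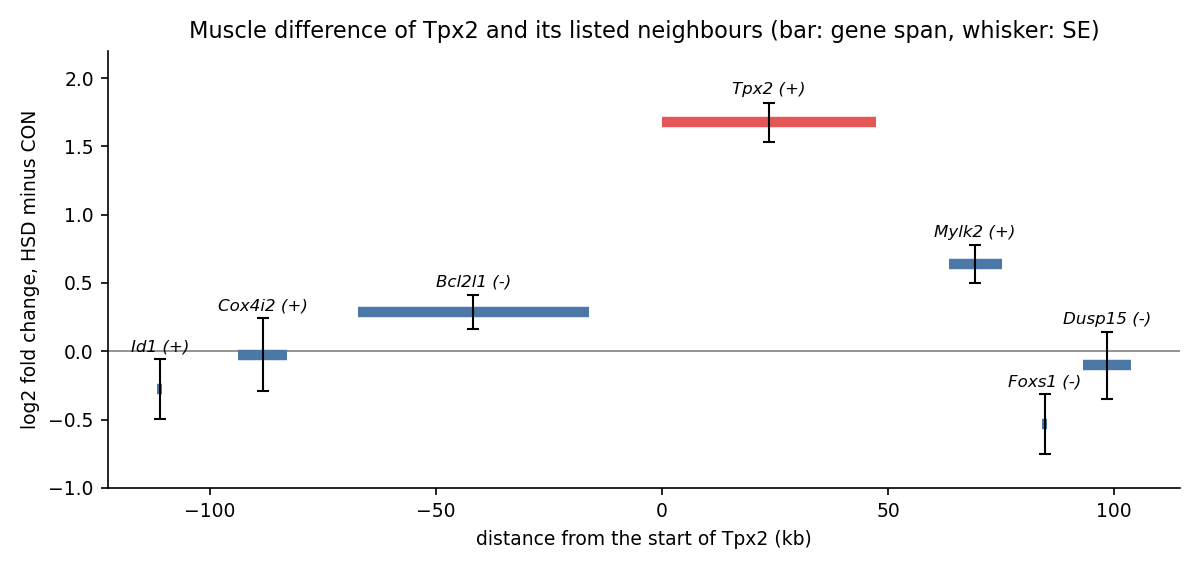
Difference between HSD and CON muscle, as a log2 fold change on the log2(FPKM + 0.5) scale with its SE as a whisker, of Tpx2 (red) and the 3 listed genes on each side (blue), over the distance from the start of Tpx2 in kb. Tpx2 stands at 1.68 and its neighbour Mylk2 at 0.64, and the other 5 lie between -0.53 and 0.29.

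Likeness to *Tpx2* over the 18 libraries was ranked by Pearson's r of log2(FPKM + 0.5) among 13066 genes with a mean of at least 0.5 FPKM. That minimum left 3 of the 10 members and 16 of the 46 other G2/M and mitosis genes, so most mitotic genes could not be ranked, and r rests largely on the muscle values for which *Tpx2* was chosen. The closest were *Eda2r* (r = 0.95), *Igfn1* (0.95), *Ppp3ca* (0.95), *Fbxo32* (0.94) and *Acyp1* (0.94). *Aurka* ranked 544th with 0.84, *Mylk2* ranked 69th with 0.90, and r with *Mki67* was -0.26. These libraries share tissues, diets and mice, so the values of r are a description. *Fbxo32*, the gene of the muscle ubiquitin ligase atrogin-1, was at 58.3 FPKM in CON and 149 FPKM in HSD muscle, and *Igfn1* at 4.65 and 12.6 FPKM. Over the 6 muscle libraries the closest were *Klf5*, *Aox1*, *Dusp26*, *Tent5b* and *Gps2*, all with r of at least 0.98, while r was -0.02 for *Aurka* and 0.63 for *Cdkn1a*. Among genes of that minimum level, the 3 closest to *Mki67* over the 18 libraries were *Mkrn1* (0.88), *Tent5c* (0.86) and *Glipr1* (0.86), and *Top2a*, which lies under it, had an r of 0.89 with *Mki67*. Among the 7 low mitotic genes the median r over 21 pairs was 0.65 in all 18 libraries, which includes differences between tissues. Within a tissue it was 0.51 in muscle, 0.31 in eWAT and 0.04 in liver, where single pairs ran from -0.71 to 0.92.

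In eWAT, the 10 genes did not differ between the diets beyond the spread of the libraries. *Tpx2* was at 0.76, 0.55 and 0.35 FPKM in CON16W, CON71W and CON72W and at 0.50, 0.66 and 0.20 FPKM in HS2W, HS3W and HS5W. The groups overlapped, and the lowest level was that of HS5W, which was also lowest of the 6 for *Aurka*, *Mki67*, *Top2a*, *Kif11* and *Birc5*. HS2W, the library with most germ cell marker RNA, was highest of the 6 for *Aurka*, *Cdk1*, *Kif11* and *Birc5*, and the part of germ cells in these values was not tested. CON16W, the library with most erythroid marker RNA, was highest of the 6 for *Tpx2*, *Mki67*, *Ccnb1* and *Ccna2*, and the part of erythroid cells was not tested. The log2 fold change of *Tpx2* was -0.16 with an SE of 0.33 (limma adjusted p = 0.81), and without HS5W it was 0.054. *Mki67* was at 0.81 ± 0.39 FPKM in CON and 0.55 ± 0.21 FPKM in HSD, and *Cdk1* at 0.31 ± 0.09 and 0.47 ± 0.11 FPKM (SD, n = 3), in opposite directions. *Cdkn1a* was at 9.52 ± 2.73 and 8.39 ± 2.43 FPKM, and *Aurka* at 1.31 ± 0.46 and 1.58 ± 0.78 FPKM. The 7 low mitotic genes summed to 2.52 to 4.32 FPKM in CON and 2.23 to 3.82 FPKM in HSD, on 1045 and 793 fragments.

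Of the 6 members with enough expression in eWAT, none was called by limma and none had an unadjusted p under 0.05, with adjusted p from 0.62 to 0.89. Voom called none either, and 0 of all 13740 genes were called (0%), with 2298 at an unadjusted p under 0.05. Without HS3W, the library high in epididymal markers, no member was called, the log2 fold change of *Cdkn1a* went from -0.17 to 0.023, that of *Aurka* from 0.15 to 0.020 and that of *Mki67* from -0.30 to -0.40. The sum of the 7 low mitotic genes in HSD eWAT was 3.29 ± 0.91 FPKM (SD, n = 3) with HS3W and 3.03 FPKM without it (n = 2). Without HS2W, *Aurka* was at -0.086 and *Mki67* at -0.39. None of the 10 members had groups that did not overlap, while 14.3% of all genes were higher and 10.4% were lower in every HSD library. Of the 46 G2/M and mitosis genes 25 were tested in eWAT and none was called. An unadjusted p under 0.05 was found for 1 of them, and the median log2 fold change was 0.10 against 0.08 over all genes. That gene was *Ube2c*, at 1.44 ± 0.48 FPKM in CON and 0.56 ± 0.07 FPKM in HSD (limma adjusted p = 0.21). None of 10 macrophage markers was called in eWAT, all 10 were lower in HSD, and their sum was 593 to 883 FPKM in CON and 260 to 559 FPKM in HSD. The part of these cells in the mitotic values was not tested.

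In liver, *Tpx2* lay at the limit of detection in the HSD libraries. CON14L, CON72L and CON16L held 8, 3 and 15 fragments of *Tpx2* (0.22, 0.07 and 0.28 FPKM), and HS2L, HS4L and HS5L held 1, 0 and 0. Every HSD library was below every CON library, the direction opposite to muscle. The ratio of HSD to CON over the pooled fragments was 0.037, with an exact 95% interval of 0.00091 to 0.23 that covers counting error only. Fitted without a minimum level, the log2 fold change was -0.43 with an SE of 0.12 and a limma adjusted p of 0.79, and 0 of 15901 genes were called, with 874 at an unadjusted p under 0.05. *Cdkn1a* moved in the same direction in liver, with 8, 11 and 56 fragments in CON14L, CON72L and CON16L and 5 in each HSD library (0.30, 0.34 and 1.36 FPKM against 0.14 to 0.16 FPKM). Its adjusted p in that fit was 0.79. Over all genes of that fit, 4.26% were lower in every HSD library. CON16L, the liver library with skeletal muscle markers and with most erythroid marker RNA, had the highest level of both genes. Without it the other CON libraries remained above every HSD library for both.

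*Mki67* had 8, 24 and 92 fragments in CON14L, CON72L and CON16L and 2, 9 and 12 in HS2L, HS4L and HS5L, with means of 0.38 ± 0.36 and 0.08 ± 0.06 FPKM (SD, n = 3). The groups overlapped, and CON16L alone held most of the CON fragments. Without it the CON mean was 0.18 FPKM (n = 2). *Birc5* went the other way, at 0.25 ± 0.25 FPKM in CON and 0.57 ± 0.37 FPKM in HSD, also with overlap. The 7 low mitotic genes summed to 0.80, 1.24 and 2.26 FPKM in CON14L, CON72L and CON16L and to 0.85 to 1.49 FPKM in HSD, with a CON mean of 1.43 FPKM, or 1.02 FPKM without CON16L. *Aurka*, the 1 member with a mean of at least 0.5 FPKM, had a log2 fold change of 0.18 with an SE of 0.42 (limma adjusted p = 0.90), which was 0.11 without CON16L and turned to -0.15 when mitochondrial genes were left out of the totals. Those genes took 15.4% to 60.8% of the liver fragments. No gene was called in liver at this level (0% of 10317), with 592 at an unadjusted p under 0.05, and voom called none. Macrophage markers summed to 40.4 to 62.0 FPKM in CON and 21.6 to 34.6 FPKM in HSD liver. Their part in the liver values of these genes was not tested.

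**Figure D4:**
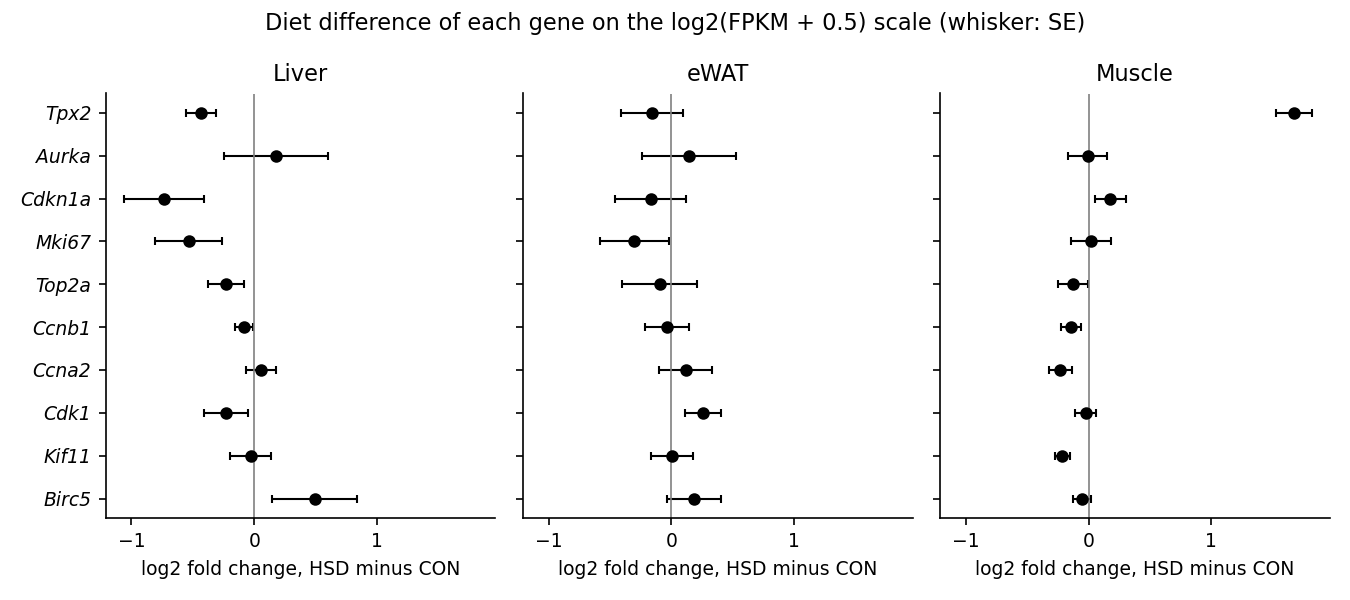
Log2 fold change between HSD and CON of each of the 10 genes on the log2(FPKM + 0.5) scale, fitted without a minimum level in liver, eWAT and muscle, with the SE as a whisker. Tpx2 stands at 1.68 in muscle, -0.16 in eWAT and -0.43 in liver, and low genes such as Ccnb1 have small differences partly because of the 0.5 added to each value.

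The tissues were then compared in the 9 CON libraries alone. The level of *Tpx2* followed the order muscle (1.84 ± 0.34 FPKM), eWAT (0.55 ± 0.21 FPKM) and liver (0.19 ± 0.11 FPKM; SD, n = 3), and on this scale no CON libraries of neighbouring tissues overlapped. With median-ratio scaling liver (0.32 ± 0.17) and eWAT (0.30 ± 0.11) overlapped, and muscle (2.02 ± 0.34) stayed highest. Muscle was one of the groups that chose *Tpx2* and its levels there are a description. Between eWAT and liver the log2 difference was 0.60 with an SE of 0.20, short of the size of 1 needed for a call. *Tpx2* reached the minimum level of this fit only through muscle, so no test of this difference is given. *Aurka* followed the same order, at 4.48 ± 0.33, 1.31 ± 0.46 and 0.83 ± 0.41 FPKM. By limma it was higher in muscle than in liver by 1.95 (SE 0.24, adjusted p = 8.5e-05) and than in eWAT by 1.49 (SE 0.24, adjusted p = 0.00042) on the log2 scale, and eWAT and liver overlapped (adjusted p = 0.11). *Cdkn1a* was highest in eWAT, at 9.52 ± 2.73 FPKM, with 4.70 ± 0.31 FPKM in muscle and 0.66 ± 0.60 FPKM in liver (0.32 FPKM without CON16L). Its log2 difference was 3.18 between eWAT and liver (adjusted p = 1.5e-05), 2.27 between muscle and liver (adjusted p = 0.00022) and -0.91 between muscle and eWAT (adjusted p = 0.031, not called). Of the 12637 genes tested, 50.1% were called between muscle and liver, 69.4% between eWAT and liver and 54.9% between muscle and eWAT, so tissue differences of this size were common. *Aurka* was among the 35.1% called higher in muscle than in liver and the 7.98% called higher in muscle than in eWAT, and *Cdkn1a* was among the 62.1% called higher in eWAT than in liver.

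The order of the 7 other mitotic genes depended on the scaling. As FPKM, their sum was 3.25 ± 0.95 FPKM in CON eWAT, 1.43 ± 0.75 FPKM in CON liver and 0.73 ± 0.30 FPKM in CON muscle (SD, n = 3), where liver and muscle overlapped. With median-ratio scaling it was highest in liver, at 2.39 ± 0.99, with 1.76 ± 0.49 in eWAT and 0.81 ± 0.35 in muscle, and liver and eWAT overlapped. That scaling of the sum was added after the data were seen. Fitted without a minimum level, *Mki67* had a log2 difference of -1.09 between muscle and eWAT (SE 0.30, limma adjusted p = 0.011) and was called lower in muscle, as were 35.0% of the 18028 genes of that fit. The log2 differences of the other 6 ran from -0.34 for *Kif11* to -0.77 for *Top2a*, with adjusted p from 0.0022 for *Ccnb1* to 0.074 for *Kif11*, and none reached the size of 1. The median over all genes of that fit was -0.58. On both scalings muscle had the highest mean level of *Tpx2* and *Aurka* and the lowest mean sum of the 7 genes. FPKM values shift with what else a tissue expresses: the median log2 difference over all tested genes was 0.52 for muscle minus liver, 1.36 for eWAT minus liver and -0.93 for muscle minus eWAT. With median-ratio scaling these medians were 0.08, -0.03 and -0.07, and the genes called higher and lower were 3095 and 2941 for muscle minus liver, 2564 and 2625 for eWAT minus liver and 2285 and 2435 for muscle minus eWAT, in place of 4436 and 1893, 7851 and 917, and 1009 and 5924. The differences between eWAT and liver of *Tpx2* and *Aurka* turned to -0.024 and -0.63, and that of *Cdkn1a* between muscle and eWAT to 0.039.

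**Figure D5:**
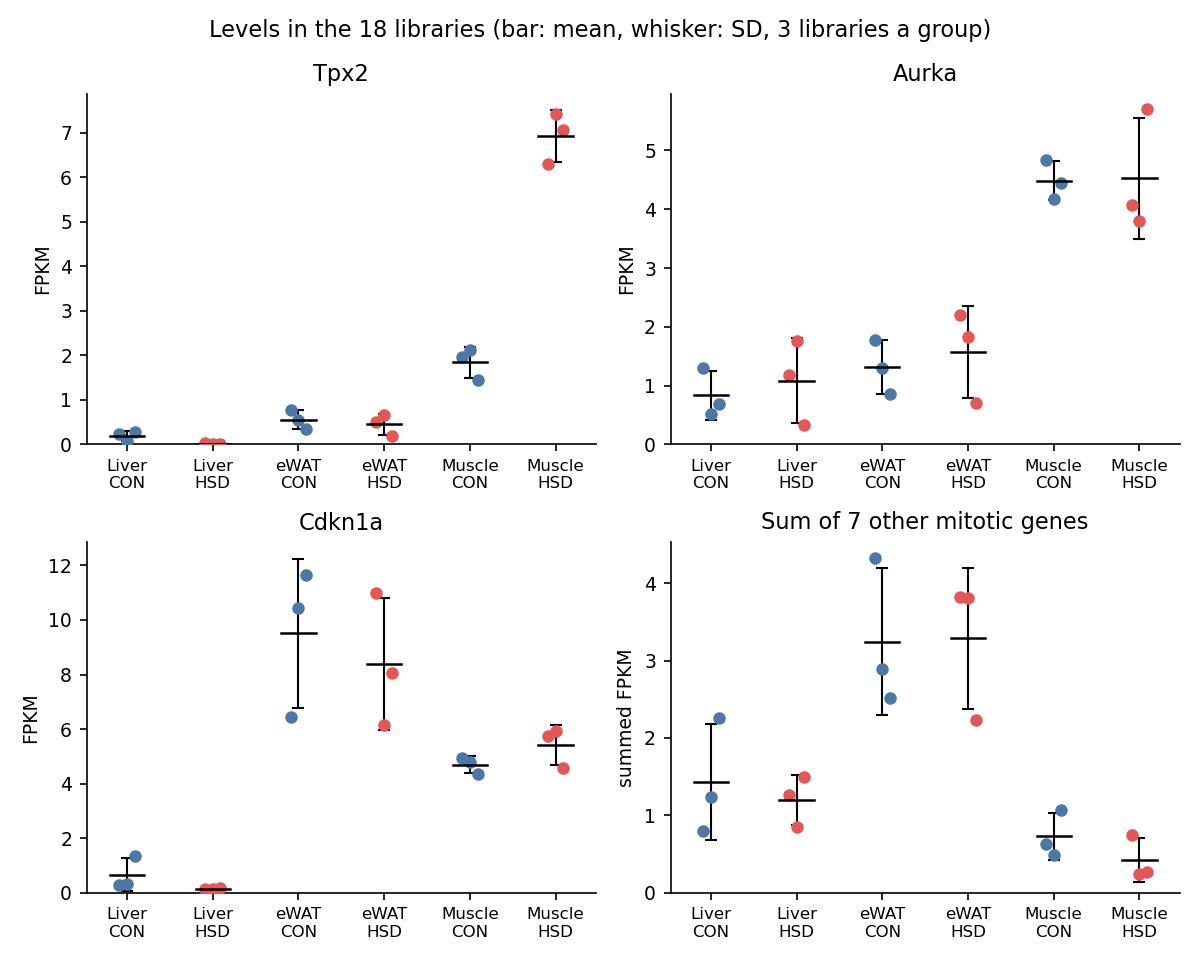
FPKM of Tpx2, Aurka and Cdkn1a and the summed FPKM of Mki67, Top2a, Ccnb1, Ccna2, Cdk1, Kif11 and Birc5 in each library of the 6 groups (CON blue, HSD red), with the mean as a bar and the SD as a whisker (n = 3). Tpx2 and Aurka are highest in muscle and the sum of the 7 other genes is highest in eWAT on this scale, at 2.23 to 4.32 FPKM, whereas with median-ratio scaling of the CON libraries it is highest in liver.

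Whether the diet difference of a member depended on the tissue was fitted as an interaction of diet and tissue over all 18 libraries, in which *Tpx2*, *Aurka* and *Cdkn1a* had enough expression. No interaction of *Aurka* or *Cdkn1a* had an adjusted p under 0.05, and the share over all 13067 genes was 0.0612% for muscle against liver, 0.788% for eWAT against liver and 0% for muscle against eWAT, where 1045 genes had an unadjusted p under 0.05. For *Cdkn1a* the difference between muscle and liver was 0.91 with an SE of 0.41 (adjusted p = 0.60), and its unadjusted p was 0.040. For *Aurka* it was -0.18 with an SE of 0.51 (adjusted p = 0.97). For *Tpx2*, the diet difference in eWAT exceeded that in liver by 0.28 with an SE of 0.29. *Tpx2* reached the minimum level of this fit only through muscle, which chose the gene, so no test of its interactions is given.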

How the data were processed

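Total RNA of liver, eWAT and quadriceps muscle was sequenced as stranded, paired-end libraries depleted of rRNA. Reads were trimmed (cutadapt) and mapped to mouse build mm10 (hisat2) by the authors, whose paper names cuffdiff for the FPKM values. They deposited FPKM of 21899 genes in 18 libraries. The submitters' processing notes also name HTSeq 0.9.1, and the annotation release is not given in the sources used here. Which of these tools gave the deposited FPKM was not tested. No deposited column was left without a sample (0). The members, gene lists and tests were chosen with earlier results of these data known.

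FPKM was compared between diets within each tissue, and between tissues in CON, with limma 3.58.1 in R 4.3.3 on log2(FPKM + 0.5) of genes with a mean of at least 0.5 FPKM, with trended eBayes and Benjamini-Hochberg adjustment over all genes tested. A fold change on this scale understates changes of low genes. A gene was called at an adjusted p under 0.05 with a log2 fold change of 1 or more in size. These are the thresholds of the study, which applied them with another test, so the numbers called here are not its numbers. Its paper reports genes that passed in liver, eWAT and muscle, most of them in eWAT. The main fits here called none in liver or eWAT, and the cause of this gap was not tested. Low members were also fitted with no minimum. With 3 libraries a group, an exact test of a single value cannot go below p = 0.1. Replicates are libraries of separate mice by their names.

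Whole fragments were recovered from FPKM with exon lengths of the mm10 annotation: of 18822 genes above 0, 18346 came out whole at the annotated length and 474 at another length, to within 0.05 fragments. limma voom on them was an alternative test, and libraries held 7628267 to 16640171 fragments. Intervals of pooled fragments are exact 95% intervals and, like the floor of 3 fragments, cover counting error only. Tested on simulated data, the fit called 95.6% of 4-fold and 17.4% of 2-fold changes in muscle among 10834 genes. The simulation held only genes with a mean of at least 0.5 FPKM and gave all of them the same small spread between libraries. These shares therefore do not apply to the low mitotic genes or to genes with a wider spread.

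Named were all 10 members, genes of each list that were called (otherwise the 3 highest and the 3 of lowest p), 3 neighbours of *Tpx2* on each side and the genes most like *Tpx2* or *Mki67*. The labels do not say that replicate numbers pair the libraries. In muscle, deviations of same-numbered CON and HSD libraries correlated at 0.38, 0.18 and 0.18. Libraries of different numbers were not compared, so a pairing is not shown and the replicate block is an alternative only. Alternatives were other pseudocounts (0.1 and 1) and minimum levels, median-ratio scaling, leaving out mitochondrial genes, no trend, the replicate block, the mouse as a random block, all tissues in 1 fit, the 15 libraries of the study's read table, and leaving out each library. The replicate block with no minimum, leaving out libraries in the comparisons across tissues, and levels without CON16L or HS3W were added after the data were seen.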

Additional observations from a re-analysis of the deposited data

Results flagged for a closer look

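*Tpx2* went in opposite directions in muscle and liver. In muscle every HSD library was above every CON library, with a ratio of HSD to CON over the pooled fragments of 3.74, and in liver every HSD library was below every CON library, with a ratio of 0.0372. The liver ratio rests on 26 fragments in CON and 1 in HSD, and 15 of the 26 were in CON16L, the liver library with skeletal muscle markers. Fitted without a minimum level, the liver difference had a limma adjusted p of 0.79. Over all genes fitted that way, 4.26% were lower in every HSD liver library and 5.05% were higher in every HSD muscle library. No test of the difference between the tissues is given, since *Tpx2* was chosen on its muscle values and such a test would not be independent of that choice.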

How the results depend on the processing

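With *Tpx2* left aside, since it was chosen on muscle, no member was called between the diets within a tissue under any alternative. Leaving out any library kept the number called at 0. At the minimum level of the main fit, only *Aurka* and *Cdkn1a* were tested in muscle besides *Tpx2*, and only *Aurka* in liver. The log2 fold change of *Tpx2* in muscle lay between 1.49 (pseudocount 1) and 1.92 (voom), and between 1.55 and 1.76 with a library left out. The replicate block gave 1.68 for *Tpx2* and called none of the other members. Correlations of same-numbered libraries were of both signs in liver (-0.47, 0.40 and -0.21) and eWAT (-0.20, 0.061 and 0.41). In both tissues 0 genes were called with the block. Of the CON tissue levels, 2 members in place of 1 were called between eWAT and liver with a pseudocount of 0.1. The added one was *Tpx2* (1.197), which reached the minimum level only through muscle, so its call is not independent of its choice. Between muscle and eWAT 2 in place of 1 were called with no minimum level (*Mki67*). The latter count was 1 to 2 with a library left out, being 2 without the eWAT library CON16W, when *Cdkn1a* was called at -1.15. The cause of these changes was not tested.

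Some differences changed sign, among them differences between tissues whose main value was -0.91 (*Cdkn1a*), 0.60 (*Tpx2*) and 0.46 (*Aurka*). *Aurka* did so in liver without mitochondrial genes (-0.15), in muscle with median-ratio scaling (0.073) and between eWAT and liver with that scaling (-0.63), as did *Tpx2* between eWAT and liver (-0.024) and *Cdkn1a* between muscle and eWAT (0.039). With the libraries of the study's read table, *Top2a* was at 0.21 and *Tpx2* at 0.054 in eWAT. There the read table lacks only HS5W, so this is the same fit as leaving out HS5W. With a library left out, *Aurka* ran from -0.14 to 0.59 in liver, -0.086 to 0.50 in eWAT and -0.17 to 0.10 in muscle. In eWAT *Top2a* ran from -0.21 to 0.21, *Cdkn1a* from -0.41 to 0.023, *Tpx2* from -0.30 to 0.054 and *Ccna2* from -0.070 to 0.19. In the interaction of diet and tissue *Aurka* ran from -0.59 to 0.13 for muscle against liver, -0.44 to 0.33 for eWAT against liver and -0.51 to 0.081 for muscle against eWAT.

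The number of genes called in muscle was 35, against 63 with voom, 54 with the block, 7 with no minimum level, 0 with both block and no minimum, 5 with all tissues in 1 fit, and 10 to 61 with a library left out. In liver it was 0, against 35 with the study's read table and 41 with all tissues in 1 fit. In eWAT it was 0, against 161 with all tissues in 1 fit and 0 to 160 with a library left out. The interaction of muscle against liver had 8 genes, against 1802 with the study's read table. Depth limits the 7 low mitotic genes, whose muscle sum rested on 17 to 77 fragments a library.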
